A study of Homo sapiens with 10 samples.

Results

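The BCL2 family was followed in RNA sequencing libraries of spheroids (3D cultures) grown from PC-3 cells with and without topotecan. PC-3 is an established human line of prostate cancer. The members were set by a rule on gene symbols, which uses no values, as 10 of the 18144 genes in the deposited table, and all 10 were present. They comprised 3 pro-survival genes (BCL2L1, MCL1 and BCL2L2) and 7 pro-death genes, of which BAX and BAK1 are effectors and BID, BIK, BCL2L11, BBC3 and PMAIP1 are BH3-only genes. All groups were PC-3 spheroids: untreated spheroids (CTRL) on days 0, 3 and 7, spheroids given a bolus of topotecan (CON, conventional exposure) on days 3 and 7, and spheroids given topotecan in daily fractions (EE, extended exposure, with METRO as its treatment label) on days 3 and 7. Each treatment and day had 1 library, so there were no replicates. Another 3 libraries, from day 1, were not analysed here. The series text speaks of weeks of exposure where the sample labels give days, and the labels are followed. Spheroids in culture hold no stroma, vessels or immune cells of a host.

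The BCL2 family sets the threshold for apoptosis at the mitochondrial outer membrane. BAX and BAK1 form pores that let cytochrome c out of the mitochondrion, the pro-survival proteins hold BAX, BAK1 and the BH3-only proteins in check, and the BH3-only proteins sense damage and stress and either neutralise the pro-survival proteins or activate the effectors. Topotecan is a topoisomerase I poison that leaves DNA strand breaks. BBC3 and PMAIP1 can be induced by several factors, among them ATF4 and CHOP of the stress response.

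Values are CPM as deposited, that is reads per 1000000 reads of a library, after a constant of 0.0001 CPM was taken off. The libraries held an estimated 15.0 to 22.5 M reads each. Both topotecan libraries of day 7, on which all day-7 changes rest, stood apart from the others, with 2116 (CON) and 1649 (EE) genes at 0 against 583 to 1245 elsewhere, and with scaling factors (TMM, trimmed mean of M values) of 0.883 and 0.900 against 0.981 to 1.09. The part of this in the day-7 results was not tested. The epithelial genes KRT8 (624 to 1170 CPM) and KRT18 (474 to 864 CPM) were abundant, and KLK3, a marker of luminal prostate cells, had no row in the table. Of the 5 markers of other cell types, PTPRC (0 to 0.489 CPM) and PDGFRB (0 to 0.532 CPM) were near 0, whereas CD68, PECAM1 and COL1A1 were read in every library at 65.7 to 128, 16.8 to 32.7 and 46.6 to 83.0 CPM. CD68 rose with topotecan on day 7 (log2 fold change 1.05, adjusted p = 0.000983), and the part of other cells in the results was not tested. In bulk RNA, fewer cells of a kind and less RNA per cell cannot be told apart.

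The promoters printed here belong to those members with an entry whose transcripts moved most on day 7, either up (BAX, BAK1, BBC3) or down (PMAIP1), together with the annotated start from which they are read. Each line is RefSeq sequence (GRCh38.p14) of the gene's strand from 250 bases before to 50 bases after the start, 5′ to 3′, and 7 of the 10 members had an entry. Capitals mark the E-box CACGTG, the CRE half-site TGACG, which is part of sites for the ATF and CREB factors, and the AP-1 site TGANTCA, searched on both strands.
BAX promoter, chr19:48954625-48954924, + strand: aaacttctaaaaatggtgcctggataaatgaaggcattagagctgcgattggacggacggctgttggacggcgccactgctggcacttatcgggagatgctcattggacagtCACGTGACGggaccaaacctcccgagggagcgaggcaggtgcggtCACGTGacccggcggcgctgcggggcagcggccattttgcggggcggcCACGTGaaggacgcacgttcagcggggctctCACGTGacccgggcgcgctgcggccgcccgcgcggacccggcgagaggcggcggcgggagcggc
BAK1 promoter, chr6:33580227-33580526, − strand: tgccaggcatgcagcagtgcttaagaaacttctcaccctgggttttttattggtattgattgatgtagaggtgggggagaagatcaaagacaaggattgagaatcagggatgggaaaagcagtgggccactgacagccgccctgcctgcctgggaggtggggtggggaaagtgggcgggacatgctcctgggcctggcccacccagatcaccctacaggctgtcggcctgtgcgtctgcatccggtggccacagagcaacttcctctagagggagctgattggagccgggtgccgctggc
BBC3 promoter, chr19:47232618-47232917, − strand: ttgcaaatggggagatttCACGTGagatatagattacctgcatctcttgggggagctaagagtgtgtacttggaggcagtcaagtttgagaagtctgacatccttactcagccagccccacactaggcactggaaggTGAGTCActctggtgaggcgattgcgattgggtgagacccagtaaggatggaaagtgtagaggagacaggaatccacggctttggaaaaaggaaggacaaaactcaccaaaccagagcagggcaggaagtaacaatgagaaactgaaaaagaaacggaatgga
PMAIP1 promoter, chr18:59899746-59900045, + strand: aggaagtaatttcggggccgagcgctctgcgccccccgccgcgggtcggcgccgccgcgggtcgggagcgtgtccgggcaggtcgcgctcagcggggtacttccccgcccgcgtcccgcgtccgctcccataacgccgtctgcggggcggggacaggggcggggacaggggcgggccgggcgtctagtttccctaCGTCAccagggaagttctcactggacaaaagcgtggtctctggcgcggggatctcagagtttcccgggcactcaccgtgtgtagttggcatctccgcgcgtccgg
The BAX window held 4 E-boxes, the first of which overlaps a CRE half-site. Of 35116 RefSeq promoters of the same length, 7.26% held at least 1 E-box and 0.0142% held 4 or more. The BBC3 window held 1 E-box and 1 AP-1 site, the latter present in 7.71% of promoters. The PMAIP1 window held 1 CRE half-site, on the opposite strand, and 4 GC boxes (GGGCGG). A CRE half-site was present in 24.6% of promoters and 4 or more GC boxes in 9.06%. BAK1 held none of the E-box, CRE and AP-1 letters, nor did the windows of BID and BCL2L11, and that of BCL2L1 held 1 CRE half-site. These matches describe letters in a window and are not evidence that a factor was bound.

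The transcripts themselves were uneven in form. BAX (chr19:48954860-48961799, + strand, coordinates as deposited on hg38) had the shortest canonical transcript of the family, 795 bases with 60.8% GC, followed by BIK (chr22:43110750-43129713, + strand) with 951 bases and 55.9% GC. BBC3 (chr19:47220824-47232668, − strand) had the highest GC, 69.7% over 1846 bases, and PMAIP1 (chr18:59899996-59904306, + strand) the lowest, 36.7% over 1899 bases. BCL2L11 (chr2:111120914-111168446, + strand) was the longest at 5098 bases, followed by MCL1 (chr1:150574551-150579739, − strand) at 3950 bases with 45.1% GC and BCL2L2 (chr14:23306833-23311760, + strand) at 3526 bases with 51.9% GC. BAK1 (chr6:33572552-33580277, − strand), BID (chr22:17734138-17774666, − strand) and BCL2L1 (chr20:31664452-31723964, − strand) lay between them at 2170, 2177 and 2574 bases. BCL2L2 shares exons with the readthrough gene BCL2L2-PABPN1 on the same strand, and BCL2L1, BAK1 and BCL2L11 overlap genes on the other strand (BCL2L1-AS1 and ABALON, GGNBP1 and MIR4435-2HG). BID and BBC3 span short microRNA genes. The library kit does not mark strand, so reads in those overlaps cannot be assigned with certainty.

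Per kilobase of canonical transcript, the anti-apoptotic gene BCL2L1, which encodes BCL-XL, was the most abundant member, with a median over the 7 libraries of 189 CPM per kb (range 172 to 219). MCL1, which encodes a short-lived pro-survival protein, came next at 95.4 (54.7 to 113), and the ranges of these 2 genes did not overlap. BAX at 48.5 (41.7 to 87.1) and PMAIP1 at 48.0 (25.2 to 69.3) CPM per kb had ranges that overlapped each other and that of MCL1. BAK1 at 34.3 (25.9 to 39.7) overlapped PMAIP1 but stayed under the lowest value of BAX. BCL2L2 followed at 15.3 (9.09 to 18.7), below every library's BAK1. BID at 13.3 (10.4 to 19.0) and BIK at 9.43 (6.52 to 17.8) overlapped BCL2L2 and each other. BCL2L11 at 5.30 (3.31 to 8.51) and BBC3 at 2.82 (1.03 to 4.94) were the lowest, with ranges that overlapped. The top 2 ranks in this order were pro-survival genes and the 4 lowest were BH3-only genes.

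**Figure D1:**
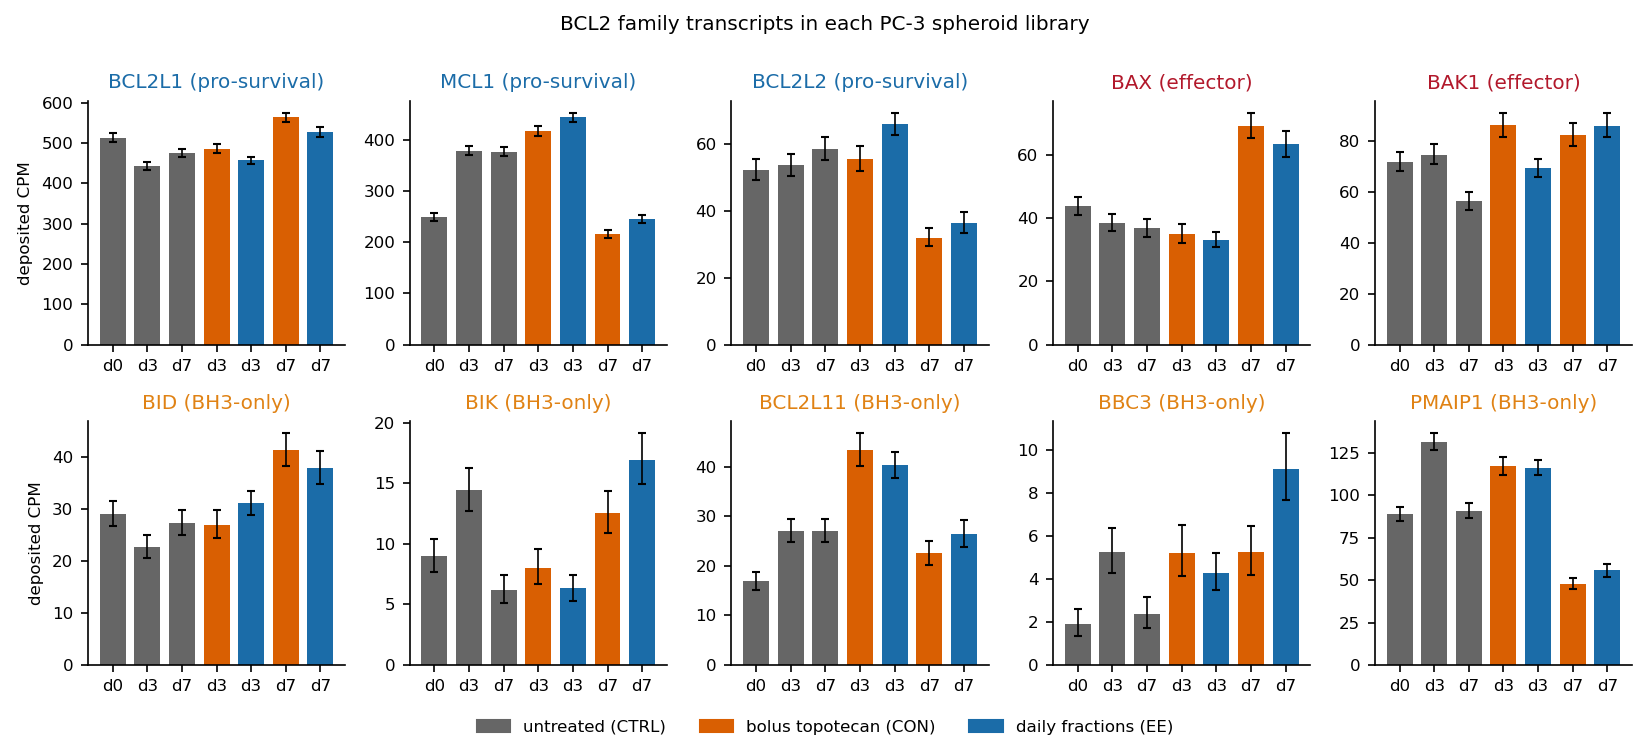
Deposited CPM of the 10 members in each of the 7 libraries (bars), with exact 95% Poisson intervals of the estimated reads, which cover counting error alone; each panel has its own axis from 0. BAX stood at 69.2 and 63.3 CPM in the topotecan libraries of day 7 and at 36.9 to 43.7 CPM without drug, and PMAIP1 at 47.8 and 55.8 CPM against 88.9 to 132 CPM.

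Untreated spheroids were compared with one another first, because they are the background for each drug effect. On days 0, 3 and 7, MCL1 was at 249, 379 and 377 CPM. BCL2L11, which encodes the BH3-only protein BIM, was at 16.9, 27.0 and 27.0 CPM. Both were lower on day 0 than on either later day. The untreated library of day 3 stood apart for 3 other BH3-only genes. BIK was at 8.97, 14.4 and 6.20 CPM on days 0, 3 and 7, BBC3 (PUMA) at 1.90, 5.23 and 2.36 CPM, and PMAIP1 (NOXA) at 88.9, 132 and 91.1 CPM. All 3 were highest on day 3. The same library was also highest among untreated libraries for the stress genes ATF3 (15.1, 124 and 16.6 CPM), DDIT3, which encodes CHOP (9.17, 51.1 and 19.7 CPM), and CDKN1A (48.2, 117 and 59.1 CPM). Between the untreated libraries of days 7 and 3, after TMM scaling, BIK differed at least 2-fold (ratio 0.425, exact 95% interval 0.340 to 0.529 for counting error alone), 1 of the 9 members with a mean of at least 5 CPM, beside 2.01% of 11428 genes. None of the 9 members past that filter differed 2-fold between days 3 and 0 or between days 7 and 0, beside 2.09% of 11256 and 1.62% of 11325 genes.

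Topotecan was then compared with no drug on each day. Since the regimens had 1 library each, the CON and EE libraries of a day were treated as a pair, and the spread between them, pooled over both days, served as error in a limma fit to log2(TMM-scaled CPM + 1). That spread holds regimen and library differences together, the lone untreated library of a day is assumed to vary likewise, and the fit has 2 residual degrees of freedom. All 14920 genes with at least 0.5 CPM in 2 libraries were tested, among them all 10 members. Genes with an adjusted p below 0.05 are called.

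On day 3, 0 of the 10 members were called by limma, beside 0.0134% of all genes, while 2 members and 1712 of all genes had an unadjusted p below 0.05. The first of these was BIK, which encodes a BH3-only protein of the endoplasmic reticulum and was at 8.03 CPM with CON and 6.32 CPM with EE against 14.4 CPM untreated. Its log2 fold change was −0.97 (SE 0.28, adjusted p = 0.294). In deposited CPM both treated values lay between those of the other untreated libraries, 6.20 and 8.97 CPM. After TMM scaling EE, at 5.79 CPM, was just under the lower of these, 5.89 CPM. The second was BCL2L11, at 43.4 CPM with CON and 40.3 CPM with EE against 27.0 CPM untreated (log2 fold change 0.55, SE 0.19, adjusted p = 0.332). Both treated libraries lay above all 3 untreated libraries, whose highest value was 27.0 CPM. With the 3 untreated libraries taken as 1 group, the value for BCL2L11 was 0.75 (adjusted p = 0.178) and that for BIK −0.42 (adjusted p = 0.524).

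The other members moved little on day 3. MCL1 was at 417 and 445 CPM with CON and EE against 379 CPM (log2 fold change 0.13, 95% interval −0.18 to 0.44), and BCL2L1 at 485 and 457 CPM against 444 CPM (0.03, −0.30 to 0.35). BAX was at 34.9 and 33.1 CPM against 38.6 CPM (−0.23, −0.59 to 0.13). Between single libraries, 0 of 10 members differed 2-fold between CON and CTRL on day 3, beside 0.997% of 11436 genes, and 1 of 9 between EE and CTRL, beside 2.07% of 11469 genes, which was BIK at a ratio of 0.417 (0.338 to 0.513). Both topotecan libraries of day 3 lay outside the range of the 3 untreated libraries for 3 members (MCL1 and BCL2L11 above, BAX below), a share near the 33.9% of all genes that did so.

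On day 7, 9 of the 10 members were called, 6 higher and 3 lower with topotecan, beside 38.6% of all genes tested. The median over the members was 0.59 and that over all genes −0.05. The 6 that rose were BAX, BAK1, BID, BIK and BBC3 of the pro-death genes and BCL2L1 of the pro-survival genes, and the 3 that fell were MCL1, BCL2L2 and the BH3-only gene PMAIP1. The choice of scaling and a trend across genes bear on all of these values. The first is the scaling: with the deposited library totals in place of TMM, the median of all genes was −0.25 and the calls over all genes were 1803 higher and 4434 lower, in place of 2766 and 2994. The second is that the day-7 change followed transcript form across genes: over 11126 genes with a mean of at least 5 CPM, its Spearman correlation was −0.64 with transcript length, −0.54 with gene span and 0.52 with GC content, given as a description across genes, which are not replicates. On day 3 the correlation with length was 0.46. With this trend removed from every library, 3 members were called, BID, BCL2L2 and PMAIP1, beside 17.7% of 14334 genes. The median over the members was then 0.26 and that over all genes −0.01. The source of the trend was not tested, and its removal also takes out any drug effect that follows the same features.

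**Figure D2:**
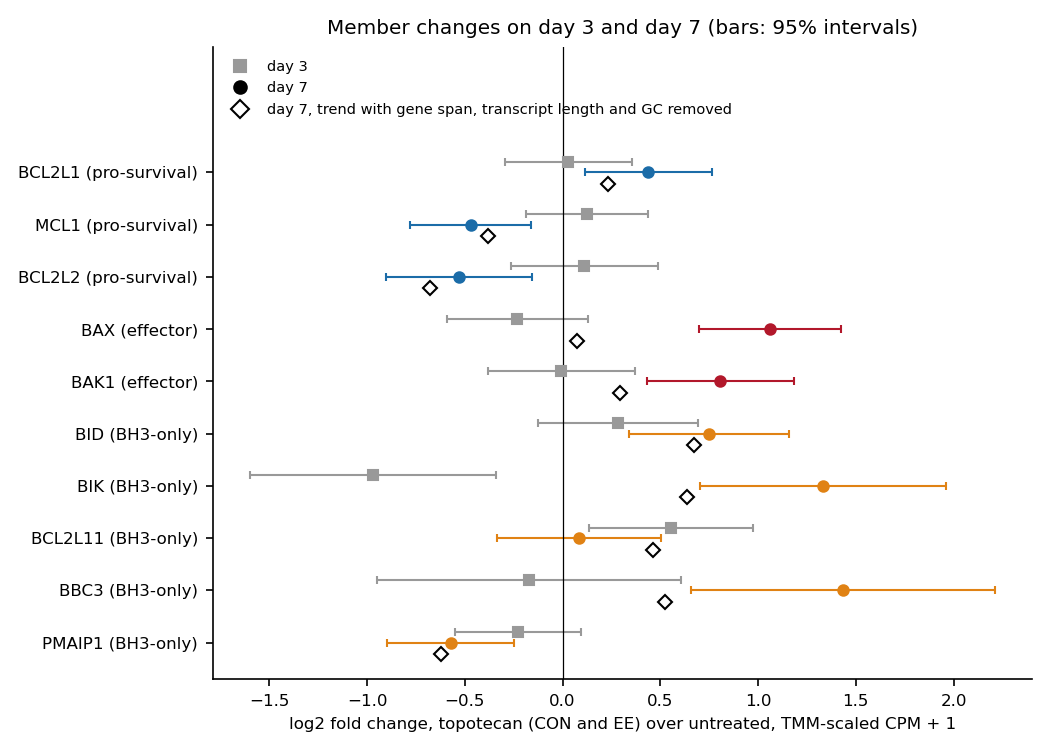
Log2 fold change of topotecan (CON and EE) over untreated spheroids for each member on day 3 (grey squares) and day 7 (coloured circles) with 95% intervals from limma, on log2(TMM-scaled CPM + 1); open diamonds give day 7 with the trend with gene span, transcript length and GC removed. BAX moved from 1.06 to 0.07 when the trend was removed, whereas BID (0.75 and 0.67), BCL2L2 (−0.53 and −0.68) and PMAIP1 (−0.57 and −0.62) were called before and after its removal.

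Of the effectors, BAX was at 69.2 CPM with CON and 63.3 CPM with EE on day 7, against 43.7, 38.6 and 36.9 CPM in untreated spheroids of days 0, 3 and 7. Both treated libraries lay above all untreated ones. The log2 fold change was 1.06 (SE 0.16, adjusted p = 0.00131), a 2.09-fold rise, and the call remained under every alternative but 1. Removing the trend left 0.07 (adjusted p = 0.770), where the trend fitted for a gene of its length, span and GC was 0.99. BAK1 was at 82.4 and 85.9 CPM against 56.2 CPM on day 7 untreated and 71.7 and 74.5 CPM on days 0 and 3. Its rise of 0.81 (SE 0.17, adjusted p = 0.00528) fell to 0.29 (adjusted p = 0.172) with the trend removed. In deposited CPM the CON library of day 3 held as much BAK1, 86.2 CPM, as either library of day 7. After TMM scaling that library was at 80.3 CPM against 93.3 and 95.4 CPM on day 7.

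Among BH3-only genes, BID, whose protein is cleaved by caspase-8 and links death receptors to mitochondria, was at 41.4 and 37.9 CPM on day 7 with CON and EE against 27.4 CPM untreated. The untreated libraries of days 0 and 3 were at 29.0 and 22.7 CPM, so both treated libraries lay above all of them. The log2 fold change was 0.75 (SE 0.18, adjusted p = 0.0110), and BID was called under each of the 15 alternatives run, at 0.52 to 0.83 and an adjusted p of at most 0.0455. BIK was at 12.5 and 17.0 CPM against 6.20 CPM (1.33, SE 0.28, adjusted p = 0.00572). The untreated library of day 3, at 14.4 CPM, lay between the treated ones in deposited CPM. After TMM scaling it was just under both, at 13.9 CPM against 14.2 and 18.8 CPM. With the 3 untreated libraries as 1 group the value was 0.78 (adjusted p = 0.0505). Removal of the trend gave 0.64 (adjusted p = 0.128). BBC3, a low transcript of 38 to 137 estimated reads per library, was at 5.23 and 9.12 CPM against 2.36 CPM (1.43, SE 0.35, adjusted p = 0.0107). The untreated library of day 3 equalled the CON library at 5.23 CPM as deposited, and was at 5.03 against 5.92 CPM after TMM scaling. The trend-removed value was 0.52 (adjusted p = 0.302). Without the CON library of day 3 or without the EE library of day 3, its adjusted p was 0.0621 and 0.0619.

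PMAIP1 and BCL2L11 did not follow the other BH3-only genes. PMAIP1, whose protein NOXA binds and neutralises MCL1, was at 47.8 CPM with CON and 55.8 CPM with EE on day 7, against 88.9, 132 and 91.1 CPM untreated. Both treated libraries lay below all untreated libraries and below both topotecan libraries of day 3 (117 and 116 CPM). The log2 fold change was −0.57 (SE 0.14, adjusted p = 0.0129) and −0.62 (adjusted p = 0.0127) with the trend removed. Without the CON library of day 7 it was −0.48 (adjusted p = 0.0632). BCL2L11 was at 22.5 and 26.4 CPM against 27.0 CPM, and its log2 fold change of 0.08 (95% interval −0.34 to 0.51) was not called under any alternative.

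Of the pro-survival genes, MCL1 was at 216 CPM with CON and 245 CPM with EE on day 7 against 377 CPM untreated (log2 fold change −0.47, SE 0.14, adjusted p = 0.0247). The untreated library of day 0, at 249 CPM, was about as low, and with the untreated libraries as 1 group the value was −0.31 (adjusted p = 0.136). Removal of the trend left −0.38 (adjusted p = 0.0577). The call was also lost without either library of day 3 (adjusted p = 0.0582 without CON, 0.0579 without EE) and without the CON library of day 7 (0.117). BCL2L2, which encodes BCL-W, was at 32.1 and 36.5 CPM against 52.3, 53.8 and 58.8 CPM in untreated spheroids, and both treated values lay below every other library. Its log2 fold change was −0.53 (SE 0.17, adjusted p = 0.0316) and −0.68 (adjusted p = 0.0186) with the trend removed. Without the CON or the EE library of day 3 or the CON library of day 7 its adjusted p was 0.0609, 0.0618 and 0.111.

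The readthrough gene that shares exons with BCL2L2 fell in the same libraries. BCL2L2-PABPN1 was at 7.65, 15.0 and 15.5 CPM untreated, 17.5 and 17.0 CPM with CON and EE on day 3, and 4.53 and 0.0674 CPM on day 7, the last being 1 read. Counted together, the pair was at 0.581 of the untreated level on day 7 (TMM-scaled), so the lower BCL2L2 value was not accompanied by a gain in its readthrough partner. BCL2L1 was at 564 and 528 CPM on day 7 against 475 CPM, and at 514 CPM on day 0 untreated. Its rise of 0.44 (SE 0.14, adjusted p = 0.0387) was the least stable of the 9: it was 0.20 (adjusted p = 0.270) with library totals and 0.23 (adjusted p = 0.235) with the trend removed, and the call was lost without any 1 of the 4 topotecan libraries (adjusted p 0.0686 to 0.149).

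**Figure D3:**
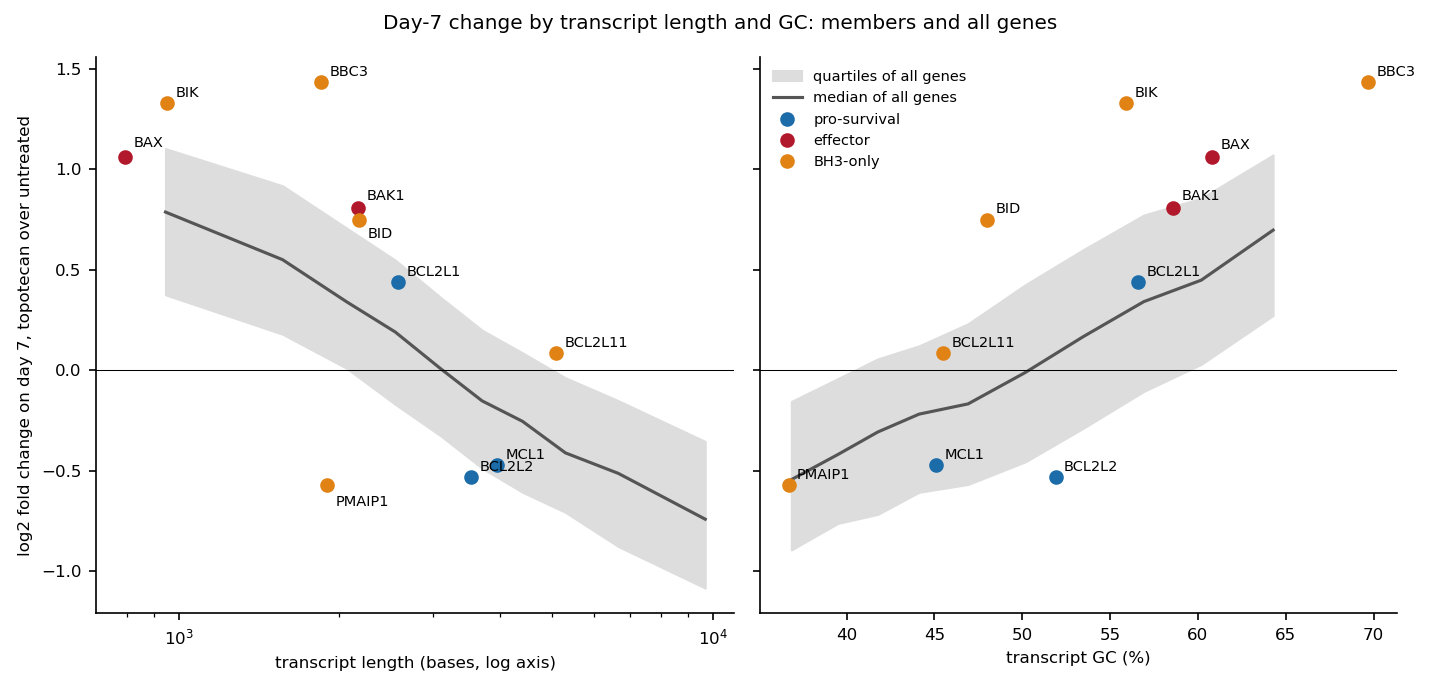
Day-7 log2 fold change of each member (points, coloured by role) against the length (left, log axis) and GC content (right) of its canonical transcript, over the median (line) and quartiles (band) of all 11126 genes with a mean of at least 5 CPM, in 10 bins of equal size. The bin of shortest transcripts had a median of 0.79 and that of the longest −0.74. PMAIP1 and BCL2L2 lay under the quartile band of their length bin. BIK, BBC3, BAK1, BID and BCL2L11 lay above it, and BAX, BCL2L1 and MCL1 within it. By GC content, PMAIP1, BAK1 and BCL2L11 lay within the band of their bin and BAX above it. The other members were placed as by length.

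Counted between single libraries of day 7, BAX (ratio 2.24, exact 95% interval 2.03 to 2.46 for counting error) and BIK (2.41, 1.91 to 3.04) were at least 2-fold higher with CON than untreated, 2 of the 9 members past the filter beside 17.9% of 11272 genes. With EE, BAX (2.01, 1.82 to 2.22), BIK (3.20, 2.56 to 4.01) and BBC3 (4.50, 3.19 to 6.46) were, 3 of 10 beside 20.3% of 11306 genes. No member was 2-fold lower. BBC3 passed the filter with EE only through its high EE value. With CON it did not pass, and its ratio there was 2.63 (1.82 to 3.87). With a mean of at least 1 CPM as the filter, 3 members were counted for each regimen. Both topotecan libraries lay outside the untreated range for 8 members, 6 above and 2 below, beside 63.0% of all genes. With library totals in place of TMM, BIK and BBC3 left this count and MCL1, below the range, entered it.

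The effect of topotecan differed between the days for 5 of the 10 members, beside 28.4% of all genes called in the same contrast. The difference, day 7 minus day 3, was 1.29 (SE 0.23, adjusted p = 0.00427) for BAX, 0.81 (SE 0.24, adjusted p = 0.0304) for BAK1, 2.30 (SE 0.40, adjusted p = 0.00398) for BIK, 1.60 (SE 0.49, adjusted p = 0.0366) for BBC3 and −0.60 (SE 0.20, adjusted p = 0.0475) for MCL1. For BIK and BBC3 it includes the high untreated values of day 3. With the trend removed only BCL2L2 was called (−0.86, adjusted p = 0.0457), and BAX and BAK1 were at 0.09 and 0.18. Without the EE library of day 3, 0 members and 0 genes were called, without the CON library of that day 3 members, and without the CON or the EE library of day 7 3 and 2.

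Setting the topotecan libraries of day 7 directly against those of day 3, which needs no untreated library, 9 members were called beside 47.5% of all genes. BAX rose by 1.22 (adjusted p = 0.000161), from 34.9 and 33.1 CPM to 69.2 and 63.3 CPM, and BIK, BID, BCL2L1 and BAK1 rose by 1.19, 0.71, 0.49 and 0.40. PMAIP1 fell by 0.89 (adjusted p = 0.000398), MCL1 by 0.62, BCL2L2 by 0.54 and BCL2L11 by 0.48. BBC3 was at 0.71 (adjusted p = 0.0629). With the trend removed, PMAIP1 (−0.92, adjusted p = 0.000723), BCL2L2 (−0.62, adjusted p = 0.00921), BID (0.61, adjusted p = 0.0157) and MCL1 (−0.47, adjusted p = 0.0105) remained called, BAX was at 0.15 (adjusted p = 0.388), and BAK1 and BBC3 turned to −0.12 and −0.28. Without the EE library of day 3, 4 members were called. This comparison and that with untreated spheroids share the topotecan libraries of day 7.

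The regimens were compared in a limma fit to the 6 libraries of days 3 and 7 in which treatment and day entered additively. Its error is thus how far a treatment's effect varies between the days. That error takes in the untreated libraries too. It grows where the topotecan effect differs between the days, also for EE against CON. Between EE and CON, 0 of 10 members were called, beside 0.0% of 14920 genes with 0 members and 137 genes at an unadjusted p below 0.05. The differences ranged from −0.15 for BAK1 (95% interval −0.88 to 0.57) to 0.22 for BBC3 (−1.01 to 1.44), and the narrowest interval was that of PMAIP1, −0.49 to 0.64. Each interval is wide enough to hold a rise as large as the fall of MCL1 on day 7. All but that of BCL2L2 (−0.467 to 0.838) also hold such a fall, so the data do not show that the regimens act alike. Between single libraries, no member differed 2-fold between EE and CON on day 3 (0 of 9, beside 0.512% of 11527 genes) or on day 7 (0 of 10, beside 0.842% of 10924 genes). The widest gap was that of BBC3 on day 7, at 9.12 CPM with EE and 5.23 CPM with CON (ratio 1.71, 1.30 to 2.27), followed by BIK at 17.0 and 12.5 CPM (1.33, 1.10 to 1.60). In the same fit, 0 members and 0.0% of genes were called for EE or for CON against untreated, whose error takes in the difference between the days, at adjusted p of 0.909 or more for each member.

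The balance of pro-death over pro-survival transcripts was read as the ratio of 2 genes' CPM within a library, which no scaling between libraries can change. These ratios are descriptions without a test, and they do depend on the transcript trend: with it removed, the day-7 change was 0.07 for BAX, 0.23 for BCL2L1 and −0.38 for MCL1, in place of 1.06, 0.44 and −0.47, so that BAX no longer gained on BCL2L1. The log2 ratio of BAX to MCL1 was −2.51, −3.30 and −3.35 in untreated spheroids of days 0, 3 and 7, and −3.58 with CON and −3.75 with EE on day 3. On day 7 it was −1.64 with CON and −1.95 with EE, above all other libraries. The ratio of BAX to BCL2L1 was −3.03 and −3.06 in the same libraries, against −3.69 to −3.52 untreated and −3.80 and −3.79 on day 3. For BAK1 to MCL1, the topotecan libraries of day 7 stood at −1.39 and −1.51 and the untreated ones at −2.75 to −1.80. On day 3, both BAX ratios were below those of all untreated libraries, and those of day 7 above.

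Pairs with BH3-only genes gave other orders. The log2 ratio of BBC3 to BCL2L1 was −5.86 with EE on day 7, the highest of all, but −6.75 with CON, which lay within the untreated range of −8.08 to −6.41. The ratio of PMAIP1 to MCL1 was −2.18 and −2.14 on day 7, below the untreated range of −2.05 to −1.49. That of BCL2L11 to BCL2L1 was highest on day 3 with topotecan, at −3.48 and −3.50 against −4.93 to −4.04 untreated, and −4.65 and −4.32 on day 7. By role, the median log2 ratio to the untreated library of day 7 was 0.85 with CON and 0.83 with EE for the 7 pro-death members and −0.55 and −0.40 for the 3 pro-survival members, with BCL2L1 higher in both libraries and PMAIP1 lower in both. On day 3 these medians were −0.06 and −0.25 for pro-death and 0.08 and 0.16 for pro-survival members. Between untreated libraries, the pro-death median was 0.48 for day 3 over day 0, −0.18 for day 7 over day 0 and −0.42 for day 7 over day 3. The pro-survival medians of these pairs were −0.04, 0.07 and 0.08. Medians by role were not computed with the transcript trend removed.

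**Figure D4:**
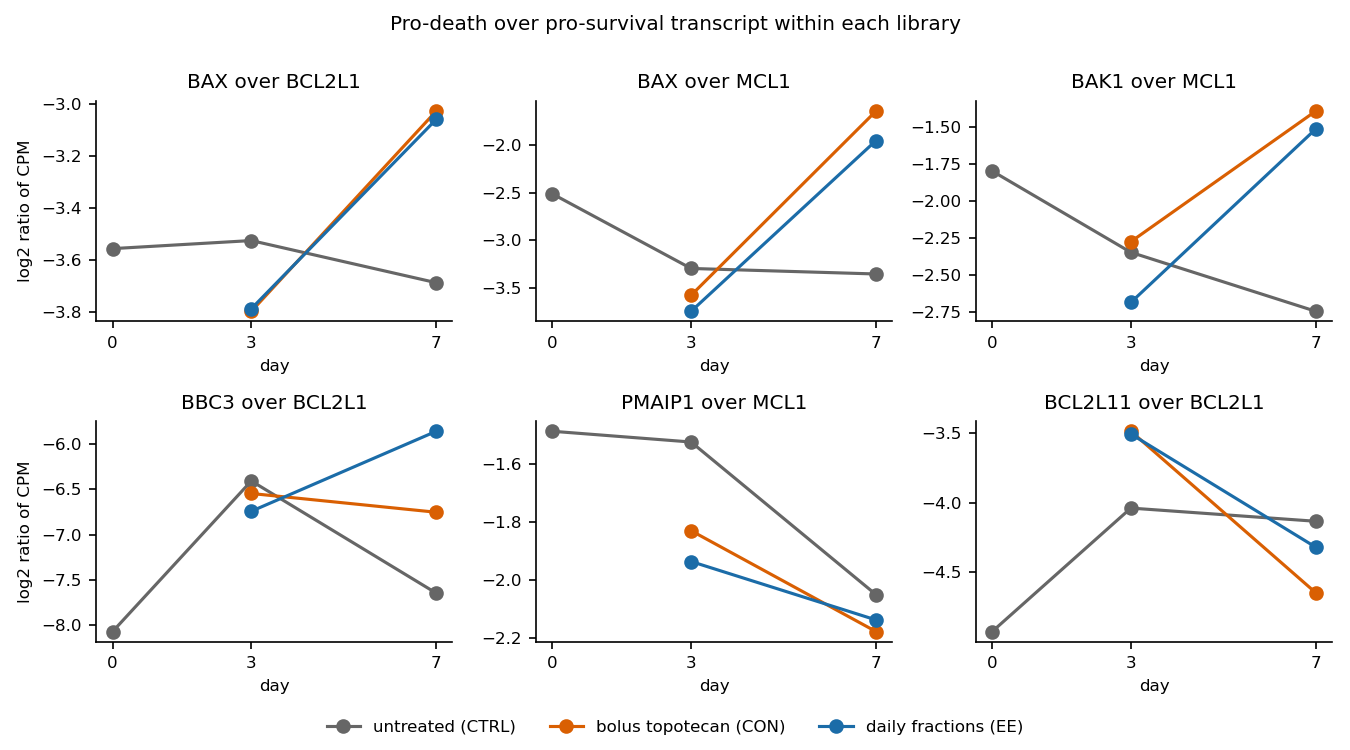
Log2 ratio of the CPM of a pro-death member to that of a pro-survival member within each library, by day, for untreated (grey), CON (orange) and EE (blue) spheroids; 1 point is 1 library and panels have their own axes. BAX over MCL1 stood at −1.64 and −1.95 on day 7 with topotecan against −3.35 untreated, whereas PMAIP1 over MCL1 stood at −2.18 and −2.14 against −2.05.

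The other genes of the pathway were read on day 7 in the same fit, where 38.6% of all genes were called, and 0 of them were called on day 3. Of 12 other BCL2 family genes, 3 rose and 0 fell: BAD, a BH3-only gene regulated by growth factor signalling (177.8 and 180.5 CPM with CON and EE against 80.0 CPM untreated, 1.39), BCL2L12 (0.95) and BOK, an effector relative (0.75). With the trend removed, these were at 0.36, 0.08 and 0.14, and none was called. Of 15 genes of the apoptosome and caspases, 3 rose (ENDOG 1.38, HTRA2 0.70 and DIABLO 0.66, which encode proteins released from mitochondria) and 1 fell (APAF1, the scaffold of the apoptosome, −0.77), and 0 remained called with the trend removed. Of the 6 inhibitors of apoptosis tested, 4 fell and 0 rose: NAIP (−1.79), BIRC6 (−1.35), BIRC2 (−0.53) and XIAP (−0.44). NAIP alone was still called with the trend removed (−1.07, adjusted p = 0.0212), and XIAP turned to 0.35.

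Upstream of the family, 4 of the 10 tested genes of the death receptor arm rose and 0 fell, namely TRADD (1.24), TNFRSF1A (0.95), TNFSF10 (0.86), the gene for TRAIL, and FADD (0.56). With the trend removed, TNFRSF1A was still called (0.51, adjusted p = 0.0186), whereas TNFSF10 (0.84, adjusted p = 0.0553) and TRADD (0.35, adjusted p = 0.163) were not and FADD turned to −0.08. CFLAR, which encodes an inhibitor of caspase-8 activation and is named after its values were seen, went from −0.28 (adjusted p = 0.217) to 0.68 (adjusted p = 0.0184). Of 8 genes for the transcription of MCL1 or the turnover of its protein, CDK9, which is needed for MCL1 transcription, rose (0.55) and 4 fell. Among those that fell were HUWE1 (−1.02), an MCL1 ubiquitin ligase, and USP9X (−0.61), an MCL1 deubiquitinase. With the trend removed, CDK9 was at 0.16 and HUWE1 at −0.15, and USP9X turned to 0.41 (adjusted p = 0.0387). Of 10 mitochondrial outer membrane partners, TOMM40 (0.90), VDAC2 (0.73), which binds BAK1, and VDAC1 (0.51) rose and DNM1L (−0.98) and MFN1 (−0.82) fell. Of these 5, VDAC2 and VDAC1 remained called with the trend removed (0.54 and 0.44), and TOMM40, DNM1L and MFN1 did not (0.19, −0.50 and −0.30).

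Of the genes of the DNA damage response that are given here, PHLDA3 rose most (486 and 603 CPM against 183 CPM, 1.80, and 1.34 with the trend removed), followed by CDKN1A (92.8 and 137 CPM against 59.1 CPM, 1.16). CDKN1A was at 117 CPM in the untreated library of day 3, within the range of the treated libraries. XPC (−1.12), ZMAT3 (−0.81) and RRM2B (−0.80) fell. With the trend removed, CDKN1A (0.70, adjusted p = 0.0379) and XPC (−1.09, adjusted p = 0.0157) remained called, whereas RRM2B was at −0.24 (adjusted p = 0.244) and ZMAT3 turned to 0.02 (adjusted p = 0.954). MDM2 was at 61.3 and 58.6 CPM against 76.9 CPM (−0.12, adjusted p = 0.539) and turned to 0.57 (adjusted p = 0.0159) with the trend removed.

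Of the 11 tested genes on a list of stress response regulators and targets, 7 rose and 1 fell, with a median of 0.56. CHAC1 (42.2 and 59.8 CPM against 14.3 CPM, 1.97), DDIT3 (51.5 and 57.4 CPM against 19.7 CPM, 1.65) and TRIB3 (263 and 273 CPM against 121 CPM, 1.38) rose and remained called with the trend removed, at 1.16, 0.97 and 0.88. FOXO3, which activates BCL2L11 and BBC3, fell (−0.48) and was at 0.07 with the trend removed. ATF4 was not called (0.17, adjusted p = 0.390 in limma) and turned to −0.46 (adjusted p = 0.0317) with the trend removed. The untreated library of day 3 was high for this group as well, with 51.1 CPM of DDIT3 and 215 CPM of TRIB3, near the treated libraries of day 7. STAT3 of this list had no row in the table, nor had BIRC7 of the inhibitors of apoptosis.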

How the data were processed

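RNA of PC-3 spheroids was sequenced on TruSeq RNA v2 libraries. The authors aligned the reads with STAR against hg38 and deposited gene CPM for 18144 genes, each with 0.0001 added, and the submitters' processing notes name Partek. Versions, annotation and strand setting are not given in the sources used here. Low values lay on steps of 1 read for 91.0% to 92.4% of values (tolerance 0.1 read), which gave an estimate of depth, and because the rest did not, no test for counts was run. Intervals and the limit of 3 reads for a value of 0 (0.133 to 0.200 CPM) cover counting error alone.

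CPM were scaled by TMM and tested as log2(CPM + 1) with limma 3.58.1 in R 4.3.3 with a mean-variance trend and Benjamini-Hochberg adjustment at 0.05, in the cells CTRL day 0, CTRL day 3, CTRL day 7, topotecan day 3 and topotecan day 7 over 7 libraries, and with treatment and day over 6. Other steps used scipy 1.17.1, pandas 2.3.3, numpy 2.4.6 and matplotlib 3.10.9 in Python 3.11.15. The scaling, the limma fit in cells and the exact interval of a ratio were tested on simulated data without a transcript trend. The remaining steps were not. Counts of 2-fold ratios used genes with a mean of at least 5 CPM in both libraries. Transcript features came from GENCODE 44, for 17116 genes, and promoters from RefSeq. The trend removed was, per library, a quadratic in log span, log transcript length and GC.

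All 10 members are named, and of each pathway list at most the 3 highest and 3 lowest called genes of day 7, with ATF3, ATF4, CFLAR, CDKN1A, MDM2, DDIT3 and list genes without a row. Some genes and the count of 1 list are not reported here. Other genes are named where they mark cell identity or overlap a member. The rule for the members uses no values, but it and the lists were chosen with earlier results of these data known. Alternatives were the scaling, pseudocounts of 0.1 and 5 CPM, the filter, no mean-variance trend, removal of the transcript trend, the untreated libraries as 1 group, CON and EE alone, and leaving out each library.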

Additional observations from a re-analysis of the deposited data

Results flagged for a closer look

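The effect of topotecan against untreated spheroids differed between day 7 and day 3 for 5 members by the test of that difference in limma (log2, day 7 minus day 3). The differences were 1.29 for BAX (adjusted p = 0.00427), 0.81 for BAK1 (adjusted p = 0.0304), 1.60 for BBC3 (adjusted p = 0.0366), 2.30 for BIK (adjusted p = 0.00398) and −0.60 for MCL1 (adjusted p = 0.0475). Beside these stand the untreated values of day 3, which were the highest of the 3 untreated libraries for BIK (14.4 CPM) and BBC3 (5.23 CPM). After TMM scaling, untreated BAK1 was at 73.1, 71.6 and 53.5 CPM on days 0, 3 and 7, lowest on day 7. Untreated MCL1 was level on days 3 and 7 (ratio of day 7 to day 3 0.984, exact 95% interval 0.952 to 1.02 for counting error alone). The transcript trend stands beside them as well. With it removed, BAX moved to 0.09, BAK1 to 0.18, BBC3 to 0.57 and BIK to 1.43 (adjusted p = 0.0520), and MCL1 stayed at −0.60 (adjusted p = 0.0668). The part of the untreated values or of the trend in the differences was not tested beyond these values.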

How the results depend on the processing

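With 1 library per treatment and day, the error rests on the spread between regimens, and leaving out 1 topotecan library leaves 1 residual degree of freedom. Direction held for each of the 9 members called on day 7 under every alternative run, and for BCL2L11, which was not called, it turned to −0.14 with library totals and, leaving out single libraries, ranged from −0.01 to 0.18. The count of 9 members called on day 7 was 5 with no filter, 5 with no mean-variance trend, 3 after removal of the fitted dependence on gene span, transcript length and GC, and 5 to 9 leaving out single libraries, with 5 reached without CON day 3, EE day 3 or CON day 7. The 5 members of the day difference were 2 with no filter, 2 with no mean-variance trend, 1 with that dependence removed, and 0 to 5 leaving out single libraries, with 0 reached without EE day 3, 2 without EE day 7 and 3 without CON day 3 or CON day 7. The 9 members of topotecan on day 7 against day 3 were 4 with that dependence removed, where BAK1 turned to −0.12 and BBC3 to −0.28, and 4 to 9 leaving out single libraries, with 4 reached without EE day 3. The cause of these changes was not tested.

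Over all genes, the 5760 called on day 7 were 2532 and the 7093 of topotecan on day 7 against day 3 were 3156 with that dependence removed. The 4242 genes of the day difference were 1880 with no filter, 2748 with no mean-variance trend, 1097 with that dependence removed, 2003 without CON day 3 and 0 without EE day 3. On day 3, 0 to 10 genes and 0 members were called under every alternative. The additive fit called 0 members for EE and for CON against untreated, but 0 to 9 leaving out single libraries, with 9 reached for both without the untreated library of day 3, when the contrast rests on that of day 7, and 6189 and 6470 genes were called. With CON and EE libraries alone, 82 genes and 0 members were called between the regimens. Their differences ranged, leaving out single libraries, from −0.53 to 0.97 for BBC3, −0.49 to 0.19 for BAK1 and −0.09 to 0.25 for PMAIP1.

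On day 3, where no member was called, signs of values near 0 turned. With the untreated libraries as 1 group, BCL2L1 was at −0.10, BAK1 at 0.12, BBC3 at 0.47 and PMAIP1 at 0.11. With the dependence on gene features removed, BAK1 was at 0.12 and PMAIP1 at 0.03, and with library totals BAK1 was at 0.05. Leaving out single libraries, BCL2L1 ranged from −0.03 to 0.08 and BAK1 from −0.17 to 0.16.

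Counts of members changed 2-fold between single libraries were low and moved with the threshold. At 1.5-fold they were 2 for CON against untreated on day 3, 6 for CON and 5 for EE on day 7, 1 for EE against CON on day 7, and 2 and 1 for untreated day 3 and day 7 against day 0. With the dependence on gene features removed they were 0 for EE on day 3, 0 for CON on day 7 and 1 for EE on day 7. For CON on day 7 the count was 1 with library totals and 1 with a mean of at least 10 CPM. With a mean of at least 1 CPM it was 1 for untreated day 3 against day 0 and 2 for untreated day 7 against day 3.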

Other observations

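The 3′ untranslated regions of the members differed in length and in the motif ATTTA, the core of AU-rich elements, which are known to shorten the life of many mRNAs. BAX (165 bases), BAK1 (1254 bases) and BBC3 (981 bases), all higher on day 7, held 0 copies in the canonical transcript, and BIK (410 bases) and BID (1445 bases) held 1 and 2. MCL1 held 10 copies in 2820 bases, and BCL2L2 and PMAIP1, also lower on day 7, held 5 each in 2789 and 1555 bases. BCL2L11, whose change on day 7 was not called, held 8 copies in 4216 bases, and BCL2L1, which rose, held 3 in 1494 bases. Over all genes with a mean of at least 5 CPM, the day-7 change had a Spearman correlation of −0.44 with the length of the 3′ untranslated region, beside −0.64 with transcript length and −0.54 with gene span. The count of the motif was not tested across genes.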
